A study of Homo sapiens with 10 samples.

Results

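Messenger RNA of heat shock factor 1 (HSF1) and of 9 cytosolic chaperone genes was followed in MCF10A cells, an established non-tumorigenic human mammary epithelial line, on gels of different stiffness and at raised glucose. The 10 genes are HSF1, HSP90AA1, HSP90AB1, HSPA8, HSPA1A, HSPA1B, HSPH1, DNAJB1, HSPB1 and CRYAB, chosen by name as the factor and the principal cytosolic chaperones, and each matched 1 of the 27942 genes listed. Cells had been cultured for 24 h on fibronectin-coated polyacrylamide gels of 400 Pa, 1 kPa, 6 kPa or 60 kPa in medium with 5 mM glucose, and another group was kept on the 400 Pa gel with 25 mM glucose. In every group the medium held horse serum, epidermal growth factor, insulin, hydrocortisone, cholera toxin and penicillin/streptomycin. Each group had 2 libraries, given as biological replicates in their labels, each of which pooled 4 gel cultures of this 1 line. The 2 libraries of a group are told apart here by depth, as the deeper and the shallower.

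Heat shock proteins are chaperones that bind unfolded or immature proteins. HSP70 proteins bind short exposed stretches, J-domain proteins bring clients to them and start their ATP cycle, nucleotide exchange factors reset it, HSP90 dimers complete the folding of kinases and hormone receptors, and small heat shock proteins hold clients without ATP. HSF1 is held inactive by chaperones; on protein damage it forms trimers and binds heat shock elements, arrays of inverted GAA units in promoters. Its activity is set mainly by the state of the protein, so the level of its mRNA is not a measure of that activity.

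The promoter windows of these genes differed in how many exact matches to adjoining GAA units they held. They are shown because heat shock elements are the kind of site through which HSF1 acts on chaperone genes. The 250 bases before each RefSeq start site (GRCh38.p14) of 8 of the genes were searched on both strands for GAANNTTCNNGAA, an array of 3 units, and for the 2-unit arrays GAANNTTC and TTCNNGAA, which overlap it. CRYAB had no entry, and HSF1 was not examined. Capitals mark the GAA and TTC units of a match, each sequence runs 5′ to 3′ on the strand of the gene, and its last base lies just before the start site.
HSP90AA1, chr14:102087045-102087294, minus strand: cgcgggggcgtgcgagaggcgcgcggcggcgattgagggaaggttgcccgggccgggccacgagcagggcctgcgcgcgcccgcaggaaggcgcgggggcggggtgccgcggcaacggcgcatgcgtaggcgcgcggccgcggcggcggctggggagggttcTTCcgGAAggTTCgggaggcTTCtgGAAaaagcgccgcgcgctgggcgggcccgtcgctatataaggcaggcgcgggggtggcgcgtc
HSP90AB1, chr6:44247693-44247942, plus strand: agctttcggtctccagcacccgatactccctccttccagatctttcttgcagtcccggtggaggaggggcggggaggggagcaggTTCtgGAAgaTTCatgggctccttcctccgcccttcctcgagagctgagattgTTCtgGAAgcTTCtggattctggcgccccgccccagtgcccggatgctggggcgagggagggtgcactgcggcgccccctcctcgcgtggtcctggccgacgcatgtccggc
HSPA8, chr11:123062137-123062386, minus strand: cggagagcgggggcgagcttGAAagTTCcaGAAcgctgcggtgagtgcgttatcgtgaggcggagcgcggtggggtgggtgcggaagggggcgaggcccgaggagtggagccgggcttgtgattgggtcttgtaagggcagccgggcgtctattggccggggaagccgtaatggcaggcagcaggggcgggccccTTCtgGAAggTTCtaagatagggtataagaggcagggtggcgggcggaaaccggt
HSPA1A, chr6:31815293-31815542, plus strand: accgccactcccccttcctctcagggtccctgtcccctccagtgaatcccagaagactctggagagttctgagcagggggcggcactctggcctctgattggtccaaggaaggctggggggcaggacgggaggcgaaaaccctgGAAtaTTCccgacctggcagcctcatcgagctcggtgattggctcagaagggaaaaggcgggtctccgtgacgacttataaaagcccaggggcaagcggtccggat
HSPA1B, chr6:31827488-31827737, plus strand: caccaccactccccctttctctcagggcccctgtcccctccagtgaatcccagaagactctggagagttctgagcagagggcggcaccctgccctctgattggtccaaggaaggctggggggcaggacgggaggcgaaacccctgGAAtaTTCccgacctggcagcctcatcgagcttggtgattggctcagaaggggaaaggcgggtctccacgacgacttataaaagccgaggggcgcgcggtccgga
HSPB1, chr7:76302423-76302672, plus strand: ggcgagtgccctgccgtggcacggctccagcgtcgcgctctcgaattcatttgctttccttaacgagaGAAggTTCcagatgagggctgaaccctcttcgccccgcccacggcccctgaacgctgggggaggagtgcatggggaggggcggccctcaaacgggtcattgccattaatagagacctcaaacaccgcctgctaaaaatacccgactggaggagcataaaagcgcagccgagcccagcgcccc

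Arrays of 3 units were present in the windows of HSP90AA1, HSP90AB1 and HSPA8, whereas 0.441% of the 35116 windows in the table hold one. The array of HSP90AA1, in the window of the listed start nearest to the counted transcript, starts 88 bases before the start site (TTCCGGAAGGTTC), and another 2-unit array follows at -68. HSPA8 has an array at -230 (GAAAGTTCCAGAA) and another at -55 (TTCTGGAAGGTTC), and HSP90AB1 has arrays at -165 and -112. The HSP90AB1 window shown belongs to the last of its 3 listed start sites, and the windows of the other listed sites, including the site nearest to the counted transcript, had no match. HSPA1A and HSPA1B share GAATATTC at -106 and -105, and both have TATAAA, at -30 and -29, a motif found on either strand in 10.7% of windows. HSPB1 has 1 match, GAAGGTTC at -182. At 1 of the 3 DNAJB1 start sites, 10911 bases from the start of the counted transcript, 2-unit arrays lie at -77 and -47. The window of the DNAJB1 site nearest to the counted transcript, 37 bases from its start, has none. The HSPH1 window has none either. Its start site lies 461 bases from that of the counted transcript, so the bases just before the counted start were not searched. The letters GAANNTTC occur in 5.78% of windows and TTCNNGAA in 6.62%. Only exact units were sought, so arrays with a mismatched unit were not counted. A match in letters is a description of the reference and was not tested for binding.

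Values are FPKM as deposited, that is, reads of a transcript scaled to its exon length and to the mapped reads of the library. Log2 fold changes are differences of log2(FPKM + 1) with their standard error from limma, fitted to all 10 libraries over the 12820 genes whose mean reached 0.5 FPKM, and a gene is said to rise or fall where the Benjamini-Hochberg adjusted p over those genes was under 0.05. Fewer cells of a kind and less RNA per cell cannot be told apart in such bulk libraries. Mapped reads per library ranged from about 2982920 to about 28605900, with both 400 Pa libraries at 5 mM the deepest. Markers of basal mammary epithelium were high, with KRT5 between 1135 and 1694 FPKM and TP63 between 8.37 and 13.6. PGR, CD3E, VWF and COL3A1 were at 0 in every library and ESR1 did not pass 0.111. Other endothelial and fibroblast markers were low but present, with PECAM1 between 0.078 and 0.753 FPKM and COL1A1 between 0.336 and 1.06. PDGFRB did not pass 0.297, LYZ 0.186, CDH5 0.049 and PTPRC 0.018.

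The libraries fell into 2 sets by the GC content of the transcripts they favoured. The Spearman correlation, across 12650 genes, between a library's deviation from the gene means and transcript GC content was 0.596 to 0.664 in the 400 Pa and 1 kPa libraries at 5 mM and in the deeper 6 kPa library. It was -0.310 in the shallower 6 kPa library, -0.597 and -0.568 at 60 kPa and -0.645 and -0.665 at 25 mM glucose. The comparisons of 60 kPa and of 25 mM glucose with 400 Pa thus cross from one set to the other, and the groups and the sets cannot be told apart there, whereas 1 kPa against 400 Pa and 60 kPa against 25 mM glucose lie within a set. The changes of the 10 genes from 400 Pa to 60 kPa and to 25 mM glucose are therefore also given after a GC correction, in which a smooth curve of each library's deviation on GC content is subtracted. That correction also removes any true response that follows GC content. Among the chaperone genes GC content spans 40.0% in HSPH1 to 64.5% in HSPB1.

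**Figure D1:**
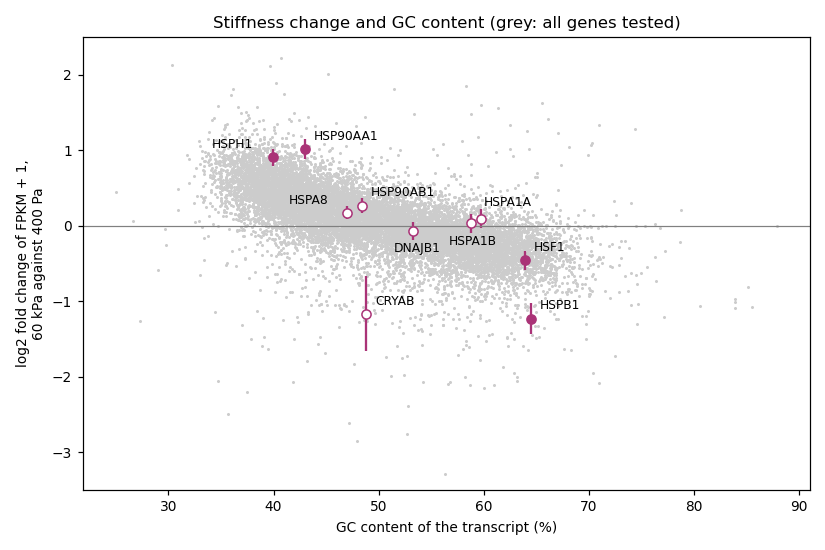
Log2 fold change of FPKM + 1 between 60 kPa and 400 Pa (y axis) against the GC content of the transcript in percent (x axis), for 12650 tested genes (grey) and the 10 genes with standard errors (purple, filled where the adjusted p was under 0.05). Across genes the change falls with GC content (Spearman rho -0.717); HSPH1 and HSP90AA1, at 40.0% and 43.0% GC, lie among the risers, while HSPB1, at 64.5%, lies below HSF1, at 63.9%.

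The constitutive HSPA8 and HSP90AB1 were the most abundant of the 10. HSPA8 had the highest mean over all libraries, 775 FPKM, rank 37 of the 27942 genes, followed by HSP90AB1 with 464 (rank 74), HSP90AA1 with 349 (rank 103) and HSPB1 with 153 (rank 248). DNAJB1, HSF1 and HSPH1 lay between 37.7 and 56.1 FPKM. The stress-inducible HSPA1A and HSPA1B had means of 16.7 and 12.6 FPKM, and CRYAB had 1.74. HSPA1A and HSPA1B are listed with 5 copies each, and the other members with 1. How reads that fit more than 1 copy were counted is not stated, so the level and rank of this pair are uncertain. Together the 10 genes came to between 1652 FPKM, in a 1 kPa library, and 2373 FPKM, in a 60 kPa library, of which HSPA8 made up 38.7 to 43.1%. All 10 passed the filter on low values. HSPA8, both HSP90 genes and HSPB1 have processed pseudogenes of similar sequence, and their share in the reads was not tested.

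**Figure D2:**
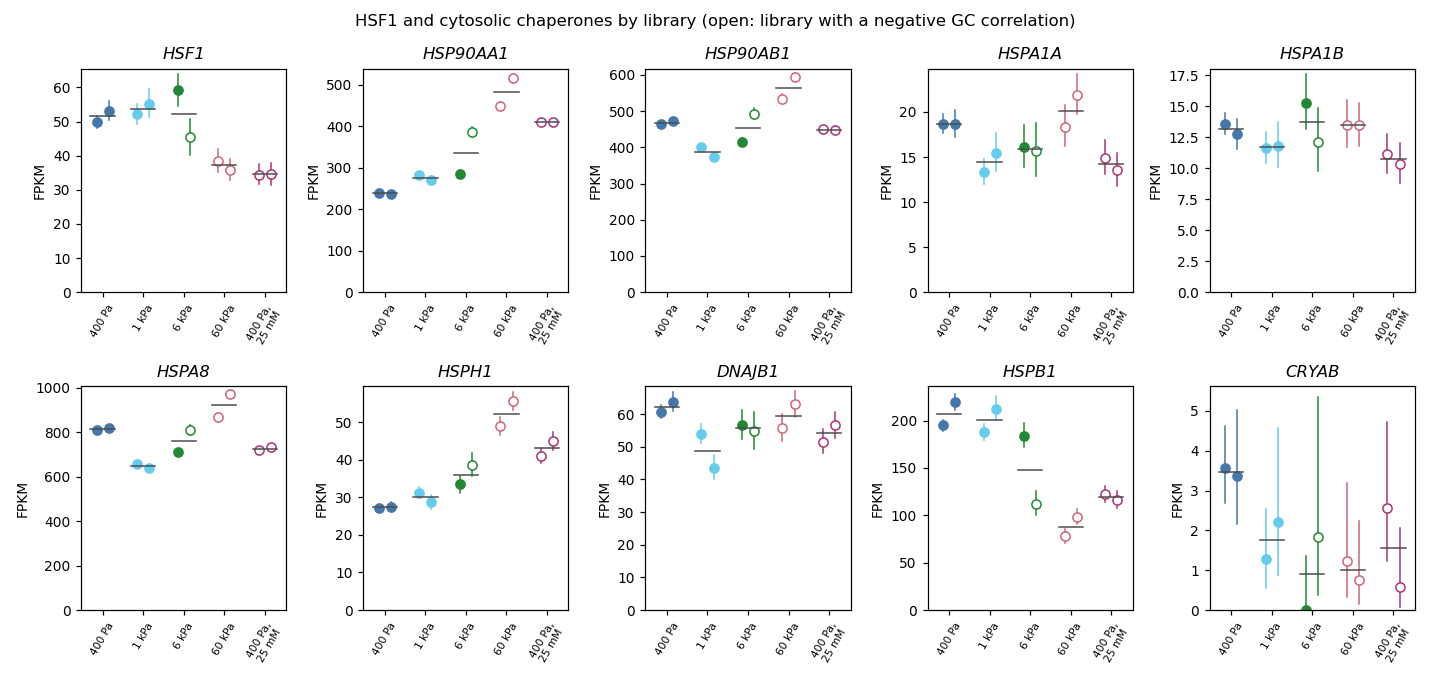
FPKM (y axis) of each of the 10 genes in the 5 groups (x axis), 1 point per library with an exact 95% Poisson interval of its reads, which covers counting error only, and a line at the mean of the group. Open points are libraries whose deviation correlates negatively with GC content. HSP90AA1 and HSPH1 climb from 400 Pa to 60 kPa, HSPB1 is lowest at 60 kPa, and the 6 kPa libraries stand apart from each other in several panels.

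The study's main comparison asks how the cells respond to stiffness. From 400 Pa to 60 kPa, HSP90AA1 and HSPH1 rose and HSPB1 and HSF1 fell, and the remaining 6 genes did not pass the test. These 4 of 10 stand against 21.2% of all genes called in this comparison (15.1% called higher and 6.15% lower). The median log2 change of the 10 was 0.06, as was that of all genes tested. After centring the libraries on their median ratio to the gene means the same 4 genes were called, against 22.4% of all genes, and the genes called higher and lower went from 1934 and 788 to 1672 and 1206. After GC correction HSP90AA1, HSPH1 and HSPB1 remained called, HSF1 was no longer called, and 10.1% of genes were called. By limma-voom 6 of the 10 were called, the same 4 with HSP90AB1 and CRYAB, against 39.4% of all genes. A limma fit to only the libraries compared called the same 4 with CRYAB, 50% of the 10, against 30.4% of all genes.

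HSF1, the transcription factor itself, was read at 49.8 and 53.2 FPKM on 400 Pa, 52.2 and 55.3 on 1 kPa, 59.1 and 45.3 on 6 kPa, 35.9 and 38.5 on 60 kPa and 34.5 and 34.5 at 25 mM glucose, the deeper library first. The 3 softer gels at 5 mM overlapped with each other, and every 60 kPa and 25 mM library lay below all of them; the 25 mM libraries lay just under those of 60 kPa. Its log2 fold change from 400 Pa to 60 kPa was -0.46 ± 0.13 (adjusted p = 0.0322). After centring it was -0.55 (adjusted p = 0.0291), and after GC correction -0.10 ± 0.08 (adjusted p = 0.487). The call was also lost without the filter on low values (adjusted p = 0.0589) and when any 1 of the 4 libraries was left out (adjusted p = 0.0867 to 0.207), with changes of -0.41 to -0.51 and 151 to 1083 of all 12820 genes called in those fits. At 25 mM glucose the change was -0.57 ± 0.13 (adjusted p = 0.0155), and after GC correction -0.19 ± 0.08 (adjusted p = 0.229). HSF1 was counted on NM_005526 (chr8:145515251-145538389 in hg19, plus strand), which overlaps DGAT1 on the other strand; counting set no strand, so reads of the overlap cannot be told apart, and DGAT1 had a mean of 9.99 FPKM.

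The 2 cytosolic HSP90 isoforms were closer in level on the stiffer gels. HSP90AA1, the stress-inducible isoform, was read at 239.6 and 237 FPKM on 400 Pa, 283 and 270.3 on 1 kPa, 286 and 386 on 6 kPa, 516 and 450.2 on 60 kPa and 409.9 and 410.2 at 25 mM glucose. No 2 groups that are neighbours in this order of means, 60 kPa, 25 mM, 6 kPa, 1 kPa and 400 Pa, overlapped, although the lower 6 kPa library lay close to the 1 kPa libraries. The log2 fold change from 400 Pa to 60 kPa was 1.01 ± 0.13 (adjusted p = 0.00299), and 0.71 ± 0.07 (adjusted p = 0.000689) after GC correction. It stayed called with any 1 of the 4 libraries left out, at an adjusted p of 0.0193 to 0.0441. Over the 8 libraries at 5 mM the slope per 10-fold of stiffness was 0.45 ± 0.06 (adjusted p = 0.00191) on the log2 scale. HSP90AA1 was counted on NM_005348 (chr14:102547075-102553512 in hg19, minus strand).

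HSP90AB1, the constitutive isoform, was read at 463 and 473 FPKM on 400 Pa, 402 and 372 on 1 kPa, 414 and 493 on 6 kPa, 594 and 535 on 60 kPa and 449.5 and 448 at 25 mM. The 60 kPa libraries were above all others, the 1 kPa libraries were below all others, and the 3 groups between were close, with the 6 kPa libraries spanning 400 Pa and 25 mM. Its change from 400 Pa to 60 kPa was 0.27 ± 0.10 (adjusted p = 0.0862), and 0.19 ± 0.06 (adjusted p = 0.0724) after GC correction; limma-voom on whole reads called it, at 0.19 ± 0.05 (adjusted p = 0.00541).

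The ratio of HSP90AA1 to HSP90AB1 was 0.517 and 0.501 on 400 Pa, 0.704 and 0.727 on 1 kPa, 0.691 and 0.782 on 6 kPa, 0.868 and 0.842 on 60 kPa and 0.912 and 0.915 at 25 mM. The libraries of all other groups were above both 400 Pa libraries at 5 mM, including the 1 kPa libraries and the deeper 6 kPa library, which belong to the same GC set as 400 Pa. The log2 ratio was higher by 0.75 at 60 kPa and by 0.84 at 25 mM than at 400 Pa; with 2 libraries against 2 the exact permutation test gave its smallest possible p of 0.333 in both. Over the 8 libraries at 5 mM, in a relation examined after the values were seen, the log2 ratio correlated with log10 stiffness (Pearson r = 0.854, exact permutation p = 0.00952; Spearman rho = 0.878, p = 0.0103; both 0.0206 after adjustment over 4 relations). Without the 60 kPa libraries, the farthest from the median stiffness, r was 0.782 over 6 libraries. No correlation is given within the GC sets, which hold 5 and 3 of these libraries; in the set of 5 the ratio was 0.501 and 0.517 on 400 Pa and 0.691 to 0.727 in the others. After GC correction HSP90AA1 and HSP90AB1 changed by 0.71 and 0.19 at 60 kPa and by 0.42 and -0.18 at 25 mM. The transcripts are 71.3% identical over 2616 aligned bases with no identical run over 23 bases.

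Neither gene of the inducible HSP70 pair passed the test at 60 kPa. HSPA1A was read at 18.7 and 18.7 FPKM on 400 Pa, 13.4 and 15.5 on 1 kPa, 16.1 and 15.6 on 6 kPa, 21.9 and 18.4 on 60 kPa and 14.9 and 13.5 at 25 mM. HSPA1B was read at 13.6 and 12.7, 11.6 and 11.8, 15.3 and 12.1, 13.5 and 13.5 and 11.1 and 10.3 FPKM in the same order. For both genes the 60 kPa and 400 Pa libraries overlapped and the 25 mM libraries were below those of 400 Pa. From 400 Pa to 60 kPa the changes were 0.10 ± 0.12 (adjusted p = 0.605) for HSPA1A and 0.03 ± 0.12 (adjusted p = 0.874) for HSPA1B, the second of which became -0.05 after centring. After GC correction they were 0.37 ± 0.11 (adjusted p = 0.0689) and 0.29 ± 0.09 (adjusted p = 0.0757). The ratio of HSPA1A to HSPA1B lay between 1.05 and 1.63 and did not correlate detectably with stiffness (r = 0.209, exact permutation p = 0.621, 0.829 adjusted; rho = -0.049, p = 0.946; r = -0.685 without the 60 kPa libraries). The 2 transcripts are 94.1% identical over 2394 aligned bases and share a run of 1715 identical bases, and each is listed with 5 copies. The labels and headers do not say how reads were divided between them or among copies, so their separate and joint levels are uncertain. The 2 genes lie close together at chr6:31783291-31785719 and chr6:31795512-31798031 in hg19.

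**Figure D3:**
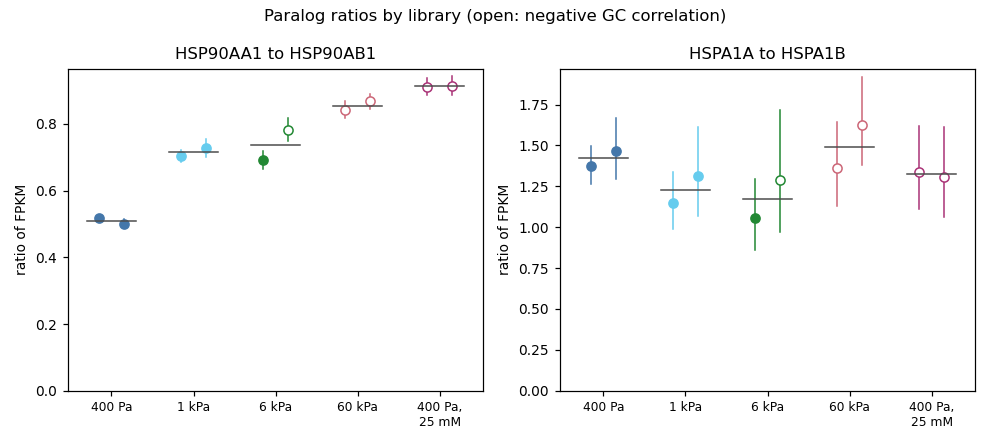
Ratio of the FPKM of 2 paralogs (y axis) in each library of the 5 groups (x axis), with exact 95% binomial intervals of the reads, which cover counting error only, and a line at the mean; open points are libraries that correlate negatively with GC content. HSP90AA1 to HSP90AB1 (left) goes from 0.501 and 0.517 on 400 Pa to 0.842 and 0.868 on 60 kPa, while HSPA1A to HSPA1B (right) stays between 1.05 and 1.63.

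HSPA8, the constitutive HSP70, was read at 812 and 820.4 FPKM on 400 Pa, 659 and 640.5 on 1 kPa, 709.5 and 810.4 on 6 kPa, 974 and 869.9 on 60 kPa and 719 and 734 at 25 mM glucose. The order of its means resembled that of HSP90AB1, with 60 kPa highest and 1 kPa lowest, and only the 6 kPa and 25 mM libraries overlapped among neighbours. The change from 400 Pa to 60 kPa was 0.17 ± 0.09 (adjusted p = 0.186), and 0.04 ± 0.04 (adjusted p = 0.596) after GC correction.

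HSPH1, which resets the nucleotide of HSP70, was read at 27.2 and 27.5 FPKM on 400 Pa, 31.3 and 28.8 on 1 kPa, 33.5 and 38.6 on 6 kPa, 55.5 and 48.9 on 60 kPa and 41.1 and 45.0 at 25 mM. Its groups took the same order as those of HSP90AA1, again with no overlap between neighbours. The change from 400 Pa to 60 kPa was 0.91 ± 0.11 (adjusted p = 0.00253), and after GC correction it was 0.46 ± 0.07 (adjusted p = 0.00543), smaller but still called. It was counted on NM_006644 (chr13:31709111-31736158 in hg19, minus strand). DNAJB1, the J-domain partner of inducible HSP70, was read at 60.7 and 63.8 FPKM on 400 Pa, 53.9 and 43.6 on 1 kPa, 56.7 and 54.7 on 6 kPa, 63.0 and 55.9 on 60 kPa and 51.6 and 56.5 at 25 mM. All neighbouring groups of DNAJB1 overlapped, and its change at 60 kPa was -0.07 ± 0.12 (adjusted p = 0.717), and 0.03 ± 0.09 (adjusted p = 0.869) after GC correction.

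HSPB1, the small heat shock protein also called HSP27, had the widest range of the abundant genes. It was read at 195 and 219 FPKM on 400 Pa, 188 and 213 on 1 kPa, 184 and 112 on 6 kPa, 98.6 and 77.7 on 60 kPa and 122 and 116 at 25 mM. The 400 Pa and 1 kPa libraries overlapped at the top, the 6 kPa libraries lay far apart with the lower one beneath both 25 mM libraries, and the 60 kPa libraries were lowest. From a mean of 207 ± 17.4 (SD, n = 2) on 400 Pa to 88.2 ± 14.8 on 60 kPa, the log2 fold change was -1.23 ± 0.21 (adjusted p = 0.00631). After GC correction it was -0.87 ± 0.10 (adjusted p = 0.00137). Without the shallower 400 Pa library it was -1.15 (adjusted p = 0.0728), no longer called in a fit that called 151 of all 12820 genes. HSPB1 was counted on NM_001540 (chr7:75931875-75933618 in hg19, plus strand).

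CRYAB, the small heat shock protein alpha-B crystallin, was near the detection limit. It was read at 3.56 and 3.37 FPKM on 400 Pa from 56 and 24 reads, 1.29 and 2.21 on 1 kPa, 0.764 and 1.24 on 60 kPa and 2.56 and 0.573 at 25 mM. The deeper 6 kPa library held 0 reads, which allows up to 1.10 FPKM at 3 reads (the plotted two-sided 95% interval ends at 1.35 FPKM), for counting error only, and the shallower held 3 reads, or 1.83 FPKM. The 400 Pa libraries were above all others. The change at 60 kPa was -1.17 ± 0.49 (adjusted p = 0.124), and limma-voom on whole reads gave -1.78 ± 0.66 (adjusted p = 0.0337); its GC-corrected change was -1.23 (adjusted p = 0.160).

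The authors' deposited table gives log2 fold changes from 400 Pa to 60 kPa of 0.92 for HSP90AA1, 0.84 for HSPH1, -1.32 for HSPB1, -0.56 for HSF1, 0.18 for HSP90AB1 and 0.08 for HSPA8. For these 6 of the 10 its adjusted p was under 0.05, as for 16.5% of the 27942 genes the authors' deposited table lists with no filter. Limma on the deposited log2 values, over 12720 genes past a filter on low values, called 80% of the 10 against 51.8% of all. The authors' deposited table has -1.64 for CRYAB, -0.15 for DNAJB1, -0.06 for HSPA1B and 0.01 for HSPA1A, at an adjusted p above that level. For HSP90AA1, HSP90AB1, DNAJB1 and CRYAB that table was counted on other transcripts than the FPKM.

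Along the ordered gels at 5 mM, the same 4 genes passed the test of a slope per 10-fold of stiffness, against 23.3% of all genes (16.8% with a rise and 6.55% with a fall). The slopes on the log2 scale were 0.41 ± 0.05 (adjusted p = 0.00153) for HSPH1, -0.59 ± 0.09 (adjusted p = 0.00336) for HSPB1 and -0.22 ± 0.07 (adjusted p = 0.0423) for HSF1. After GC correction they were 0.21 (adjusted p = 0.00482), -0.41 (adjusted p = 0.000868) and -0.04 (adjusted p = 0.586), and that of HSP90AA1 was 0.31 (adjusted p = 0.00123), with 8.55% of all genes called. The HSF1 slope lost its call when any 1 library was left out, apart from the deeper 400 Pa and the deeper 6 kPa library. Over only the 5 libraries with a positive GC correlation, which end at 6 kPa, the slope was 0.22 ± 0.10 for HSP90AA1 (adjusted p = 0.349), 0.24 ± 0.08 for HSPH1 (adjusted p = 0.264) and -0.14 ± 0.11 for HSPB1 (adjusted p = 0.557). That of HSF1 had the opposite sign there, 0.17 ± 0.08 (adjusted p = 0.380). Over the 3 libraries with a negative correlation the slopes were 0.32 ± 0.23, 0.42 ± 0.14, -0.36 ± 0.20 and -0.28 ± 0.12 in the same order of genes. Both limma fits called 0 of the 12820 genes, with 1997 and 1170 at an unadjusted p under 0.05.

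The intermediate gels gave few calls. At 1 kPa against 400 Pa limma called 0 of the 10 genes and 0 of all genes (0.0%), with 4 of the 10 and 776 of all genes at an unadjusted p under 0.05. Those 4 had lower means on 1 kPa, with log2 changes of -0.36 ± 0.12 for HSPA1A, -0.35 ± 0.12 for DNAJB1, -0.33 ± 0.09 for HSPA8 and -0.27 ± 0.10 for HSP90AB1. Of these, limma-voom called HSPA8 and HSP90AB1 (adjusted p = 0.00193 and 0.0407), 2 of the 10 against 182 of all genes (1.42%). At 6 kPa limma called 0 of the 10, against 0.351% of all genes, with 4 of the 10 and 1706 of all 12820 genes at an unadjusted p under 0.05, and limma-voom called 3 of the 10, against 2.93%. There the libraries of the group differed: the shallower had 386 FPKM of HSP90AA1 and 112 of HSPB1, the deeper 286 and 184, and they lie in different GC sets. Without the deeper one, HSP90AA1 (0.69, adjusted p = 0.00832), HSPH1 (0.48, 0.0278) and HSPB1 (-0.88, 0.0131) passed the test on 1 remaining library, which is assumed to vary like the other groups; 13.9% of all genes were called in that fit. With both libraries and GC correction HSP90AA1 alone of the 10 was called, at 0.40 ± 0.07 (adjusted p = 0.0244), against 1.85% of all genes.

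The second question of the design is the response to glucose on the soft gel. At 25 mM against 5 mM glucose HSP90AA1 and HSPH1 rose and HSPB1 and HSF1 fell, 4 of 10 against 24.5% of all genes (17.6% higher, 6.84% lower). This comparison and the stiffness comparison use the same 400 Pa libraries at 5 mM, so they are not independent. The changes were 0.78 ± 0.13 (adjusted p = 0.00773) for HSP90AA1, 0.63 ± 0.11 (adjusted p = 0.00878) for HSPH1 and -0.79 ± 0.21 (adjusted p = 0.0270) for HSPB1. After GC correction HSP90AA1 (0.42, adjusted p = 0.0159) and HSPB1 (-0.40, 0.0485) stayed called, HSPH1 was 0.13 ± 0.07 (adjusted p = 0.316), HSPA8 was called lower, so that 3 of 10 were called, against 5.52% of all genes. Leaving out any 1 of the 4 libraries ended the calls of all 4 genes, with an adjusted p of up to 0.170, with the exception of HSPH1 without the deeper 25 mM library (adjusted p = 0.0491). The changes then lay at 0.77 to 0.79 for HSP90AA1, 0.57 to 0.70 for HSPH1, -0.70 to -0.87 for HSPB1 and -0.52 to -0.61 for HSF1. Without either 400 Pa library 0 of all 12820 genes were called (limma; 3790 and 2960 at an unadjusted p under 0.05), and without the shallower or the deeper 25 mM library 3 and 498. By limma-voom, with all libraries, 8 of the 10 were called, against 45.4% of all genes. After centring 6 of the 10 were called, the same 4 with HSPA8 and HSPA1A, against 27.0% of all genes, while the genes called higher and lower went from 2259 and 877 to 1844 and 1619.

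In the fit to all 10 libraries, none of the 3 HSP70 genes passed the test at 25 mM with FPKM as deposited. Only HSPA8 passed it after GC correction. A fit to only the libraries compared, with FPKM as deposited, called HSPA8 and HSPA1A lower. That fit called 60% of the 10 genes, against 42.6% of all genes. HSPA8 changed by -0.17 ± 0.09 (adjusted p = 0.179) as deposited, and passed the test after centring (-0.28, adjusted p = 0.0110) and after GC correction (-0.35, adjusted p = 0.00781). HSPA1A changed by -0.37 ± 0.12 (adjusted p = 0.0527), by -0.48 after centring (adjusted p = 0.0184) and by -0.07 after GC correction (adjusted p = 0.755). HSPA1B was at -0.27 ± 0.12 (adjusted p = 0.136) and at 0.00 after GC correction, and DNAJB1 at -0.20 ± 0.12 (adjusted p = 0.236) and -0.11 after it. Limma-voom called both lower (adjusted p = 0.0362 and 0.0264), as it did HSPA8 and HSPA1A. HSP90AB1 was at -0.06 ± 0.10 (adjusted p = 0.682), and -0.18 after GC correction (adjusted p = 0.115). CRYAB was at -0.91 ± 0.49 (adjusted p = 0.197), and -1.01 after GC correction (adjusted p = 0.271). At 25 mM all of the 10 but CRYAB have an adjusted p under 0.05 in the authors' deposited table. So do 18.5% of the 27942 genes listed with no filter on low values. Limma on the deposited log2 values, over 12826 genes past a filter on low values, called 90% of the 10 against 55.4% of all. The authors' deposited table gives 0.67 for HSP90AA1, 0.54 for HSPH1, -0.91 for HSPB1, -0.69 for HSF1, -0.28 for HSPA8, -0.51 for HSPA1A, -0.41 for HSPA1B, -0.32 for DNAJB1, -0.17 for HSP90AB1 and -0.88 for CRYAB.

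**Figure D4:**
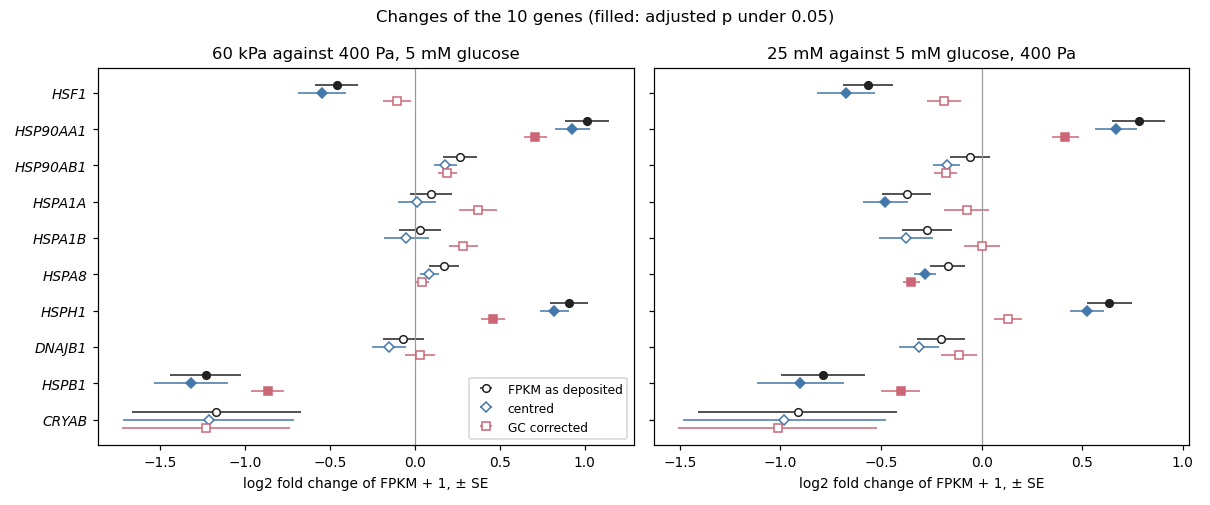
Log2 fold change of FPKM + 1 with its standard error (x axis) of the 10 genes (y axis) for stiffness (left) and glucose (right), from FPKM as deposited (black), after centring (blue) and after GC correction (red), filled where the adjusted p was under 0.05. HSP90AA1 and HSPB1 are filled in all 3 colours in both panels, HSPH1 in all 3 for stiffness, and HSF1 moves toward 0 after GC correction.

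Stiff gel and high glucose can be set against each other directly, within 1 GC set. Here 0 of the 10 genes were called by limma, against 1.75% of all genes, with 5 of the 10 and 1871 of all 12820 genes at an unadjusted p under 0.05. By limma-voom 3 of the 10 were called, HSPA8, HSP90AB1 and HSPA1A, against 5.63%. HSPA8 was higher on 60 kPa in each library than at 25 mM, with a log2 difference of 0.34 ± 0.09 (adjusted p = 0.106), as was HSP90AB1 with 0.33 ± 0.10 (adjusted p = 0.171). These 2 of the 10 passed the test after centring, against 2.72% of all genes (0.37, adjusted p = 0.0140; 0.35, adjusted p = 0.0340) and after GC correction (0.39, 0.00141; 0.37, 0.00763). After GC correction HSPA1A, HSP90AA1 and HSPH1 were also called higher and HSPB1 lower, so that 6 of 10 were called, against 7.02% of all genes. HSF1 differed by 0.11 ± 0.13 (adjusted p = 0.765).

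The wider chaperone system was described with 66 genes in 6 lists, of which 58 passed the filter on low values. From 400 Pa to 60 kPa, 20 rose and 3 fell, 39.7% against the 21.2% of all genes, with a median of 0.26 against 0.06 for all genes; after GC correction 9 rose and 2 fell, 11 of 58 against 10.1% of all genes, with a median of 0.15 against 0.02. The counts by list that follow are to be read against the same shares. Among 15 HSP90 co-chaperones 5 rose, with SUGT1 beside the 4 named next, and UNC45A fell. CHORDC1, an HSP90-binding zinc protein, changed by 1.08 ± 0.19 (adjusted p = 0.00789) and CACYBP, which links SIAH ubiquitin ligases to other proteins, by 0.76, and both were called after GC correction (0.56 and 0.29). PPID, a cyclophilin, rose by 0.64 and PTGES3, the p23 co-chaperone, by 0.44, both lost after GC correction. STIP1, which joins HSP70 to HSP90, was at 0.16 (adjusted p = 0.277; 0.24 after GC correction) and FKBP5, an immunophilin induced by glucocorticoids, at 0.03 (adjusted p = 0.899; -0.26 after GC correction), neither called on either scale.

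Of 14 measured genes of the HSP70 family and its exchange factors, 4 rose and the others did not pass the test: HSPA14 (0.88), HSPA4L (0.83), HSPA13 (0.72) and HSPA4 (0.56). HSPA14, a ribosome-associated member, was called after GC correction (0.58, adjusted p = 0.00364), and the other 3 were not. The ubiquitin ligase STUB1 was at -0.35 (adjusted p = 0.227) and BAG6 at -0.32 (adjusted p = 0.117), and after GC correction they were at 0.03 and -0.07. Among 12 measured J-domain genes 5 rose, DNAJC9 among them, and the others did not pass the test. Of the 5, those still called after GC correction were DNAJA1, the most abundant of the list (0.74, and 0.37 corrected, adjusted p = 0.00373), and DNAJC2 (0.89, and 0.54 corrected). DNAJB14 and DNAJC21 rose by 0.86 and 0.70 before correction only. DNAJC7 and DNAJC8 were at 0.30 and 0.41, and at 0.12 and 0.18 after correction, not called on either scale.

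The genes listed as other HSF1 targets moved in both directions, 4 up and 2 down of 8, including TCP1, a chaperonin subunit, among those that rose. The list also holds a chaperone of the endoplasmic reticulum, HSP90B1, and whether HSF1 acts on each listed gene was not tested. HSPE1, the mitochondrial co-chaperonin, went from 45.5 ± 1.79 FPKM (SD, n = 2) on 400 Pa to 86.9 ± 13.4 on 60 kPa. It rose by 0.91 ± 0.14 on the log2 scale (0.90 after GC correction, adjusted p = 0.00261), HSPD1, its chaperonin partner, by 0.63 (0.28) and HSP90B1, the HSP90 of the endoplasmic reticulum, by 0.66 (0.33). SQSTM1, the autophagy receptor p62, went from 281 ± 17.0 to 119 ± 8.56 FPKM and HMOX1, heme oxygenase, from 10.3 ± 0.422 to 2.66 ± 0.508. On the log2 scale SQSTM1 changed by -1.24 ± 0.12 (-1.05 after correction, adjusted p = 6.65e-05) and HMOX1 by -1.64 ± 0.16 (-1.40, adjusted p = 0.00345). Both genes are also known targets of NRF2, the oxidative stress factor. UBB, a polyubiquitin gene whose repeated units may make its count uncertain, was at -0.23 (adjusted p = 0.107), and was called after centring (-0.31, adjusted p = 0.0194) but not after GC correction (-0.19, adjusted p = 0.0761). Of 2 other measured small heat shock protein genes of 7 listed, HSPB11 rose by 1.00 ± 0.14 (1.06 after correction) and HSPB8 was at -0.20 (-0.08 after correction, not called); HSPB11 is a subunit of the ciliary transport machinery despite its name. Of 7 HSF relatives and HSF1 regulators 1 rose, the deacetylase SIRT1 (0.86; 0.23 after correction, not called), and HSBP1, which binds HSF1 trimers, was at 0.20, HSBP1L1 at -0.17 and the acetyltransferase CREBBP at 0.01, and after correction at -0.04, -0.03 and 0.19, not called on either scale.

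At 25 mM glucose 20 of the 58 rose and 7 fell, 46.6% against 24.5% of all genes, with a median of 0.28 against 0.08 for all genes, but after GC correction 2 rose, HSPB11 and HSPE1, and 4 fell, FKBP4, UBB, HMOX1 and SQSTM1, 10.3% against 5.52% of all genes, with a median of 0.01. HMOX1 changed by -1.55 (-1.30 after correction) and UBB by -0.45 (-0.43). Between 60 kPa and 25 mM glucose directly, FKBP4, an HSP90-bound immunophilin, was higher on 60 kPa by 0.49. SQSTM1 was lower, with a log2 difference of -0.64. The other 56 genes did not pass, so that 3.45% were called against 1.75% of all genes. After GC correction 7 of the 58 were called higher on 60 kPa and 2 lower, 15.5% against 7.02% of all genes. At 6 kPa HMOX1 and SQSTM1, 2 of the 58, were called lower, against 0.351% of all genes called.

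**Figure D5:**
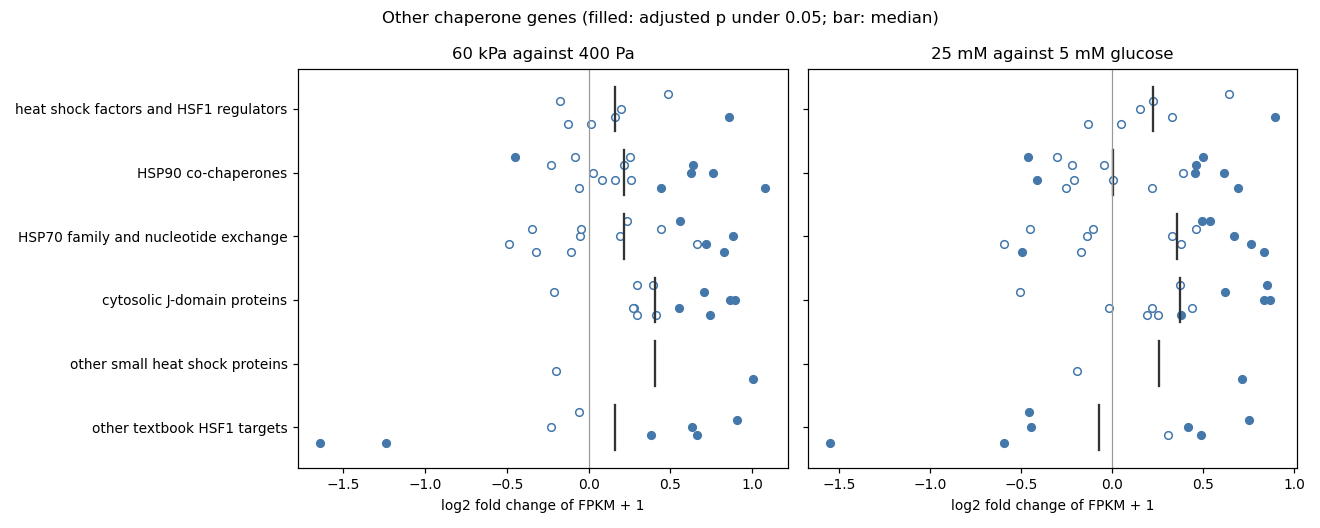
Log2 fold change of FPKM + 1 (x axis) of the measured genes of 6 lists (y axis), for 60 kPa against 400 Pa (left) and 25 mM against 5 mM glucose (right); filled points had an adjusted p under 0.05 and the bar is the median of the list. J-domain genes lie mostly to the right of 0, while the genes listed as other HSF1 targets spread on both sides, with HMOX1 leftmost at -1.64 and -1.55.

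Over the 10 libraries, the genes whose log2(FPKM + 1) was most like that of a member were sought among 7701 genes whose mean reached 5 FPKM. Closest to HSP90AA1 were DEK (Pearson r = 0.996), SLK (0.993), SACM1L (0.993) and BCLAF1 (0.993), and after GC correction DEK (0.987), ANLN (0.982), MKI67 (0.981) and SLK (0.980). Closest to HSPB1 were MXD4 (0.990), JUP (0.990), CTSD (0.989) and PRKCSH (0.983), and after correction FTH1 (0.989), KLF5, MXD4 and JUP. HSF1 was closest to FAM96B (0.982), ZNF219, ST6GALNAC4 and MYC (0.979), and after correction to LCMT1 (0.905), MANEAL, ST6GALNAC4 and MRPL53. These correlations describe the same 10 libraries, which also share depth and GC differences.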

How the data were processed

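Libraries of mRNA from MCF10A cells, 2 in each of 5 groups, were analysed from the authors' tables. STAR, HOMER, DESeq2 and hg19 are named in the submitters' processing notes; their versions are not given in the sources used here. FPKM values were made by the authors for 1 transcript per gene, with no strand option, per the file headers. The deposited log2 values of 2 comparison tables, with the authors' log2 fold changes and p-values, served as an alternative and for quotation. Column names gave the group of a library but no replicate number.

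From exon lengths and library totals the number of reads behind each FPKM was recovered, the totals of the 1 and 6 kPa libraries coming from the values themselves. Of tested values 100% lay within 0.12 of a whole number. Genes listed with more than 1 copy were left out of that check, so the reads of HSPA1A and HSPA1B were not checked. The recovered reads give counting intervals and serve limma-voom as an alternative. The main test was limma 3.58.1 (R 4.3.3; eBayes, trend) on log2(FPKM + 1) for genes averaging 0.5 FPKM or more, over all 10 libraries; a call is a Benjamini-Hochberg adjusted p under 0.05. The pseudocount of 1 understates changes of low genes. GC correction used a smoothing spline with 6 degrees of freedom over 12650 genes. The fits were tested on simulated data. Permutation tests were exact and two-sided. Other alternatives were a pseudocount of 0.1, no filter, median-of-ratios centring, only the libraries compared, and leaving out each library; the fits within a GC set and the GC correction of centred values were added after the data were seen. Promoter windows are RefSeq sequences on GRCh38.p14, and gene coordinates are the hg19 ones of the tables.

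The members and the wider lists were chosen with earlier results of these data known. A gene of the wider lists is not reported here and stays out of their counts. Named genes are the 10 members; from each wider list the 3 with the highest mean FPKM and up to 3 others past the stiffness test with the largest change; and the 4 genes most correlated with HSF1, HSP90AA1 and HSPB1. Others were named after their values were seen, where a count was 5 or fewer.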

Additional observations from a re-analysis of the deposited data

How the results depend on the processing

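No paired analysis was possible because the table columns give the group of a library but not its replicate number, so no replicate block could be fitted. For 60 kPa against 400 Pa, 2722 genes were called as reported. The count was 1809 without the filter on low values, 1283 after GC correction, 1305 after GC correction of centred values, 5049 by voom, 6589 on the deposited log2 values and 151 (without the shallower 400 Pa library) to 1083 with 1 library left out, where the lone library of a group is assumed to vary like the other groups. For glucose, against 3136 called, it was 2015, 698, 771, 5817 and 7107 in the same order, 5462 with only the libraries compared, and 0 to 498 with 1 left out. It was 0 without either 400 Pa library at 5 mM, where 3790 and 2960 genes had an unadjusted p under 0.05. At 1 kPa, against 0, the filter-free, GC-corrected, centred and corrected, and voom counts were 4, 5, 6 and 182, and 0 to 6 with 1 library left out. At 6 kPa, against 45, they were 9, 234, 275 and 376, then 83 after centring, 0 with only the libraries compared (limma; 1025 at an unadjusted p under 0.05) and 2 to 1777 with 1 left out, the highest without the deeper 6 kPa library. The slope, with 2990 calls, gave 1081 after GC correction, 1025 after centring and correction, 0 within either GC set (limma; 1997 and 1170 at an unadjusted p under 0.05, with limma-voom not run there) and 811 to 4359 with 1 library left out, the highest again without the deeper 6 kPa library. For 60 kPa against 25 mM glucose, with 224 calls, the counts were 145, 888, 899 and 722, then 349 after centring, 10 with only the libraries compared and 32 to 85 with 1 left out.

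Among the single genes, the slope of HSF1 changed sign to 0.17 within the libraries of positive GC correlation. Of 730 alternative values of the 10 genes, 633 kept their side of the threshold, 44 lost a call and 52 gained one. Most of the 10 genes were not called in any main comparison and had no call to lose, so the 633 do not measure how stable the calls are. The paralog ratios moved by less than the spread between libraries with 1 library left out or with reads in place of FPKM. After GC correction 2 of the 4 genes most like HSP90AA1 and HSPB1 were shared, and 1 of those most like HSF1.

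The fits to all 10 libraries had 5 residual degrees of freedom, and the slope and the fits to fewer libraries had other numbers. Each call rests partly on limma's shared spread, and GC content and group cannot be separated where the sets and groups coincide. Depth limits CRYAB most.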
